A study of Mus musculus with 16 samples.

Results

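Long non-coding RNAs were followed in the cochlea of newborn and 5-day-old mice, in which Miat was the transcript of main interest. The members were chosen by name. Miat was picked because it rose with DAPT at postnatal day 0 (P0), and Meg3, Malat1, Neat1, Rmst, Gas5 and Snhg11 were taken as named non-coding RNAs to set beside it. Of these 7 genes, 5 were matched to an identifier among the 36536 genes of the count tables. Malat1 and Neat1 were not analysed here. All samples came from LFng-GFP BAC transgenic mice (B6;FVB-Tg(Lfng-EGFP)HM340Gsat/Mmucd), in which Lfng regulatory sequence drives green fluorescent protein (GFP) in most, but not all, supporting cell types. Cochleas explanted at P0 or P5 were kept for 24 hours in medium with EGF and FGF2, either with 10 µM DAPT, a gamma-secretase inhibitor that stops Notch receptor cleavage, or with 0.04% DMSO, its vehicle. Cells were then sorted into a bright GFP+ fraction (supporting cells) and a GFP- fraction (other cells of the dissected explants). In the sort the authors describe, weakly fluorescent cells, which they hold likely to include inner pillar and inner hair cells, were left out. The stria vascularis, lateral wall and Reissner's membrane were taken off at dissection, at P5 only in part. Each of the 8 groups of age, treatment and fraction had 2 libraries, 16 in all. The sources used here do not say whether the 2 libraries came from separate litters or cultures, so p-values measure only the spread between these samples, which may be technical.

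Long non-coding RNAs are transcripts that are spliced and often polyadenylated like messenger RNAs but are not known to encode a protein. Miat, also called Gomafu, stays in the nucleus of subsets of neurons and is known for tandem repeats that resemble the intron branch point and bind splicing factors. Meg3 is expressed from the maternal chromosome of the imprinted Dlk1-Dio3 region, Rmst is a neural transcript reported to act with Sox2, and Gas5 and Snhg11 carry small nucleolar RNAs in their introns. Malat1 and Neat1 are abundant nuclear transcripts, of which Neat1 scaffolds the paraspeckle. In the cochlea, Notch signalling holds supporting cells back from the hair cell fate, and its block in newborn tissue is known to turn on hair cell genes in some of these cells.

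On the NCBIM37 build, Miat (ENSMUSG00000086878) lies on the minus strand of chromosome 5 from 112642248 to 112657968 as a long intergenic non-coding RNA with 7 exonic blocks and 8760 exonic bases. The last block, of 7008 bases, held all 11 copies of ACTAAC found in its exons on the transcribed strand, and 6 of them extended to TACTAAC. Of 784 intergenic non-coding RNA genes with at least 1 kb of exonic sequence, 27.6% held the motif at all, no other gene held more copies than Miat, and Miat ranked 3 by copies per kilobase. Meg3, Rmst and Snhg11 held 1 copy each and Gas5 held 2. The stretch with the most copies is shown because this repeat is what sets Miat apart in sequence from the other members. It is chr5:112646170-112646469 on NCBIM37, minus strand, written 5′ to 3′ with the 4 copies of ACTAAC in capitals.
Miat repeat region: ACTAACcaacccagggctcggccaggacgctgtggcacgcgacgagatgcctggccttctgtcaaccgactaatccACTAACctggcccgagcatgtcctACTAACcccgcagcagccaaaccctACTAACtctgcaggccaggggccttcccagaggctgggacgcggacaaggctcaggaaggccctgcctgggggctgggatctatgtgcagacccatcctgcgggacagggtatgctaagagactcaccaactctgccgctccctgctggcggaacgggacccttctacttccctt

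The start of Miat is shown because this is the gene whose RNA level moved most among the members. The RefSeq promoter window (GRCm38.p6, chr5:112228899-112229198, minus strand, 5′ to 3′, from 250 bases before to 50 after the start) held 25 CG dinucleotides, printed in capitals, where the median over 32851 promoter windows of the same length was 7. The windows of Gas5 held 33 and 19, that of Snhg11 held 21 and those of Meg3 held 13 and 1.
Miat promoter: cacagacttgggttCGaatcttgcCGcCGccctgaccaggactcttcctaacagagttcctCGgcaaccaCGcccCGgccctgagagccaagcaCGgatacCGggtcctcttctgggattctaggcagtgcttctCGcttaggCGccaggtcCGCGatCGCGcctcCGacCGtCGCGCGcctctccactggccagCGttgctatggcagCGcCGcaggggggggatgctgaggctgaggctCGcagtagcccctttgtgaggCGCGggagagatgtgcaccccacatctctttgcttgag

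None of the 6 motifs searched on both strands was in this window. They were the E-box forms CAGCTG (in 16.3% of all windows), CAGATG (17.2%) and CACGTG (7.15%), the RBPJ motif core TGGGAA (25.6%), CACGCG (9.27%) and the TATA box TATAAA (13.6%). CAGCTG was in the Snhg11 window, and no window of Rmst was matched.

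Values below are CPM, the counts of a gene scaled to a common library total, after normalisation over all 16 libraries. A gene is called changed, or said to pass the limits, when edgeR's quasi-likelihood test gave it both a change of more than 2-fold and an adjusted p below 0.01. Assigned counts ran from 13755356 to 23637236 in GFP+ libraries and from 34869184 to 45465324 in GFP- libraries. Records outside genes took from 50.05 to 62.0% in the GFP+ libraries and from 6.64 to 13.7% in the GFP- libraries. The library numbers of the deposited data form 3 runs, which hold all GFP- libraries, the P0 DMSO GFP+ libraries alone, and the other 6 GFP+ libraries. Between the P0 DMSO GFP+ libraries and any other group, and between fractions, the run and the group therefore cannot be told apart. A run here means a series of library numbers, and neither the sample titles nor the paper names it as a sequencing batch. The P0 DMSO GFP+ libraries also stand apart in detected genes, with 30639 and 31345 against 25651 to 27156 in the other GFP+ libraries. The fractions differed in supporting cell and mesenchyme markers at P0 in DMSO, where 40.9% of all genes passed. There 6 of 8 supporting cell markers were higher in GFP+ cells and all 5 mesenchyme markers were lower. The higher markers, at P5 as well, include Lfng, whose regulatory sequence drives the GFP used for sorting. Slc1a3, another supporting cell marker, was lower but missed the limit on p (log2 fold change -1.05). At P5 the counts were 5 of 8 and 3 of 5, beside 33.9% of all genes. None of 10 hair cell markers passed at P0, and 4 were higher in GFP+ cells at P5. Summed hair cell markers at P0 in DMSO were 444 and 309 CPM in GFP+ and 275 and 374 CPM in GFP- libraries. Most of these sums was Myo6, whose GFP+ and GFP- means were 301 and 295 CPM, so they say little of the lower markers. The median log2 fold change of the 10 markers was 1.73, beside 0.18 over all genes. Atoh1 (5.14) and Otof (2.97) lay to the GFP+ side but missed the limit on p. Only Jag2 (-0.83) and Pvalb (-0.40) lay to the GFP- side. Summed mesenchyme markers were uneven among GFP+ libraries at P5, at 1017 and 169.9 CPM in DMSO and 197 and 1031 CPM in DAPT.

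In newborn supporting cells Miat went from near the floor of the members to a level above all of them. Its level was 7.65 and 6.11 CPM in the 2 P0 DMSO GFP+ libraries, and 971 and 866 CPM in the 2 P0 DAPT GFP+ libraries. The other 12 libraries lay at 155 CPM or below, so the groups did not overlap. The fitted change was 7.02 on the log2 scale (standard error 0.18, 130-fold), larger in size than that of 99.4% of the genes tested. This is the change that chose Miat, and it is given as a description with no test. In the same comparison 8.37% of all genes passed the limits in either direction. Per kilobase of exon, Miat stood at 0.785 CPM in P0 DMSO GFP+ cells, place 354 among 909 intergenic non-coding RNA genes by level, and at 105 CPM in P0 DAPT GFP+ cells, place 1. The P0 DMSO GFP+ libraries formed a run of their own, so run and treatment cannot be told apart in this change. In bulk samples, more cells that contain a transcript and more of it per cell cannot be told apart.

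**Figure D1:**
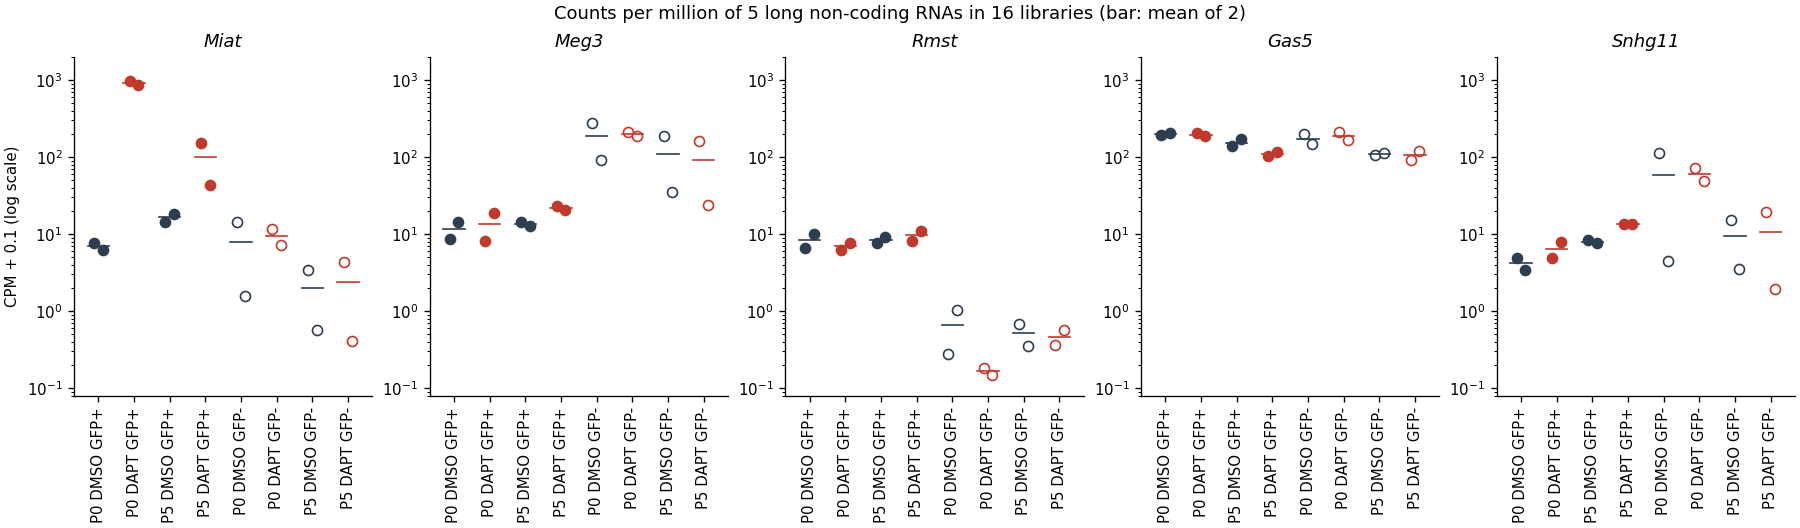
CPM plus 0.1 on a log axis for each of 5 long non-coding RNAs, with 1 point per library, a bar at the mean of 2, red for DAPT, dark for DMSO, filled for GFP+ and open for GFP-. Miat stands at 971 and 866 CPM in P0 DAPT GFP+ libraries, and Meg3 is higher in every GFP- than in every GFP+ library.

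The other 4 members did not pass the limits in this comparison. Meg3 was at 8.52 and 14.5 CPM in DMSO and at 8.06 and 18.7 CPM in DAPT (log2 fold change 0.19, standard error 0.40, adjusted p = 0.77 in edgeR). Rmst was at 6.41 and 10.1 CPM in DMSO and at 6.14 and 7.497 CPM in DAPT (log2 fold change -0.31, standard error 0.34, adjusted p = 0.54 in edgeR). Both members overlapped between the treatments. Gas5 was at 193 and 208 CPM in DMSO and at 208 and 186 CPM in DAPT (log2 fold change -0.07, standard error 0.13, adjusted p = 0.74 in edgeR), the narrowest error of the 4. Snhg11 was at 4.76 and 3.36 CPM in DMSO and at 4.86 and 7.70 CPM in DAPT (log2 fold change 0.59, standard error 0.41, adjusted p = 0.31 in edgeR). Its DAPT libraries lay above its DMSO libraries by a small margin.

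Genes of the Notch pathway and of hair cells give the setting of the Miat values. The Notch targets Hes5, Hey1, Heyl, Hey2 and Nrarp all fell in P0 GFP+ cells with DAPT, Hes5 from 112 and 84.8 CPM to 0.320 and 0.362 CPM. Of 10 hair cell markers, 8 rose and none fell, with a median log2 fold change of 4.73 beside -0.05 over all genes. The largest were Pou4f3, a factor needed for hair cell survival (5.60), Barhl1 (5.57), Atoh1, the factor that starts hair cell differentiation (5.19), and the Notch ligand Jag2 (5.01). Of 8 supporting cell markers 4 fell, Lfng, Sox9, Fabp7 and Hes5, which is also a Notch target. None rose, while Fgfr3, a growth factor receptor, was at 578.5 ± 17.2 CPM in DMSO and at 855 ± 75.5 CPM in DAPT (SD, n = 2). Of 10 tested neuron markers 4 rose, Snap25, Stmn2, Nefm and Elavl4, while Gap43 was at 1.74 and 2.09 CPM in DMSO and at 0.481 and 0.569 CPM in DAPT. Summed hair cell markers were at 444 and 309 CPM in P0 DMSO GFP+ libraries and at 2819 and 2522 CPM in P0 DAPT GFP+ libraries. Summed neuron markers were at 47.3 and 27.9 CPM and at 151 and 161 CPM in the same libraries. None of the 5 glia, 5 mesenchyme, 3 endothelium, 2 macrophage and 1 erythroid markers tested passed the limits. The part of these cell types in the Miat values was not tested.

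**Figure D2:**
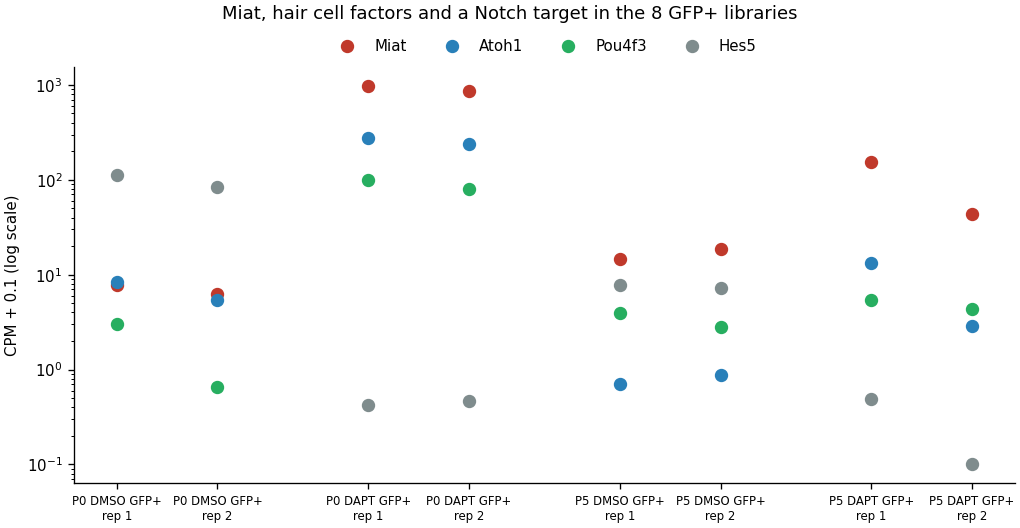
CPM plus 0.1 on a log axis for Miat, the hair cell factors Atoh1 and Pou4f3 and the Notch target Hes5, with 1 point for each of the 8 GFP+ libraries. Miat, Atoh1 and Pou4f3 are highest in both P0 DAPT libraries, and at P5 the DAPT library with more Miat (155 against 43.7 CPM) also has more Atoh1.

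The genes around Miat did not share its pattern. Within 100 kb the annotation holds Cryba4 and Crybb1, which encode lens crystallins, Tpst2, a tyrosine sulphotransferase, and Tfip11, a spliceosome protein, and none shares exonic bases with Miat. Tpst2 was at 12.1 and 6.62 CPM in P0 DMSO GFP+ cells and at 10.1 and 9.15 CPM with DAPT. Tfip11 was at 11.95 and 8.70 CPM and at 12.5 and 12.8 CPM. Cryba4 and Crybb1 stayed below 1 CPM in all GFP+ libraries. Neither Tpst2 nor Tfip11 passed the limits.

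Few of the other named non-coding RNAs passed the limits in this comparison. Of 24 other named long non-coding RNAs tested, none rose and 1 fell, 2610017I09Rik (Pantr1), which went from 30.0 ± 0.78 to 8.95 ± 3.29 CPM (SD, n = 2). The list's median log2 fold change was 0.09. Of 8 further small nucleolar RNA host genes tested, none passed the limits. Among all 638 annotated intergenic non-coding RNA genes tested, 17 rose and 11 fell, or 4.39%. Of 1015 processed transcripts tested 46 rose and 28 fell, or 7.29%, and of 198 small nucleolar RNA genes 2 rose, beside the 8.37% of all genes. Regardless of sign, the log2 fold change had a median of 0.78 for intergenic non-coding RNA genes, 1.17 for processed transcripts and 1.09 for small nucleolar RNA genes, against 0.55 for protein-coding genes. Of 3 genes for proteins reported to bind Miat RNA, the branch point binding protein gene Sf1 was at 117 ± 11.0 CPM in DMSO and 206 ± 8.51 CPM in DAPT (SD, n = 2), and its log2 fold change, 0.77, missed the fold limit (adjusted p = 0.0031 in edgeR). Celf3 and Srsf1 missed the limit on p.

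At P5 the effect of DAPT on Miat was smaller in the data and uneven between replicates. Miat was at 14.5 and 18.4 CPM in the P5 DMSO GFP+ libraries and at 155 and 43.7 CPM in the P5 DAPT GFP+ libraries. Both DAPT libraries lay above both DMSO libraries, but they differed from each other 3.54-fold. The log2 fold change was 2.60 (standard error 0.57, 6.04-fold) and did not pass the limits (adjusted p = 0.67 in edgeR), although it was larger in size than that of 99.1% of the genes tested. None of the 5 members and 0% of all 18754 genes passed, while 953 genes had an unadjusted p under 0.05 and DESeq2 called 58 genes. Without P5 DAPT GFP+ replicate 2, whose summed mesenchyme markers were the higher of the pair, the log2 fold change was 3.24 and passed the limits (adjusted p = 0.0032 in edgeR), as 1 of 2 genes that did among 20367, and without P5 DAPT GFP+ replicate 1 it was 1.39 (adjusted p = 0.60 in edgeR). With no filter on low counts it also passed, as 1 of 108 genes among 31572. On data simulated with a spread shared by all genes, the fit at the P5 spread recovered fewer of the changes put in than the fit at P0. The spread of Miat itself was not simulated. A change that missed the limits at P5 is thus not shown to be absent. The same 2 DAPT libraries had 13.2 and 2.78 CPM of Atoh1 and 16.7 and 5.61 CPM of Jag2, so replicate 1 was the higher for all 3 genes. Their summed hair cell markers, 552 and 544.6 CPM, were alike. Most of that sum was Myo6, with a mean of 429 CPM, so it says little of the lower markers. None of the hair cell markers passed the limits at P5. The difference between the P5 and P0 responses of Miat was -4.44 on the log2 scale, given with no test since the P0 response chose it, and 1.1% of all genes passed the limits for such a difference.

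The remaining members at P5 moved by less than a factor of 2 in GFP+ cells. Meg3 was at 14.4 and 12.7 CPM in DMSO and at 22.9 and 20.5 CPM in DAPT (log2 fold change 0.68, adjusted p = 0.95 in edgeR). Snhg11 was at 8.19 and 7.49 CPM in DMSO and at 13.3 and 13.5 CPM in DAPT (log2 fold change 0.77, adjusted p = 0.96 in edgeR). Gas5 was at 138 and 171 CPM in DMSO and at 103 and 118 CPM in DAPT (log2 fold change -0.48, adjusted p = 0.91 in edgeR). These 3 members did not overlap between treatments, yet none passed the limits. Rmst was at 7.58 and 9.15 CPM in DMSO and at 8.03 and 11.0 CPM in DAPT (log2 fold change 0.19). Its treatments overlapped.

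**Figure D3:**
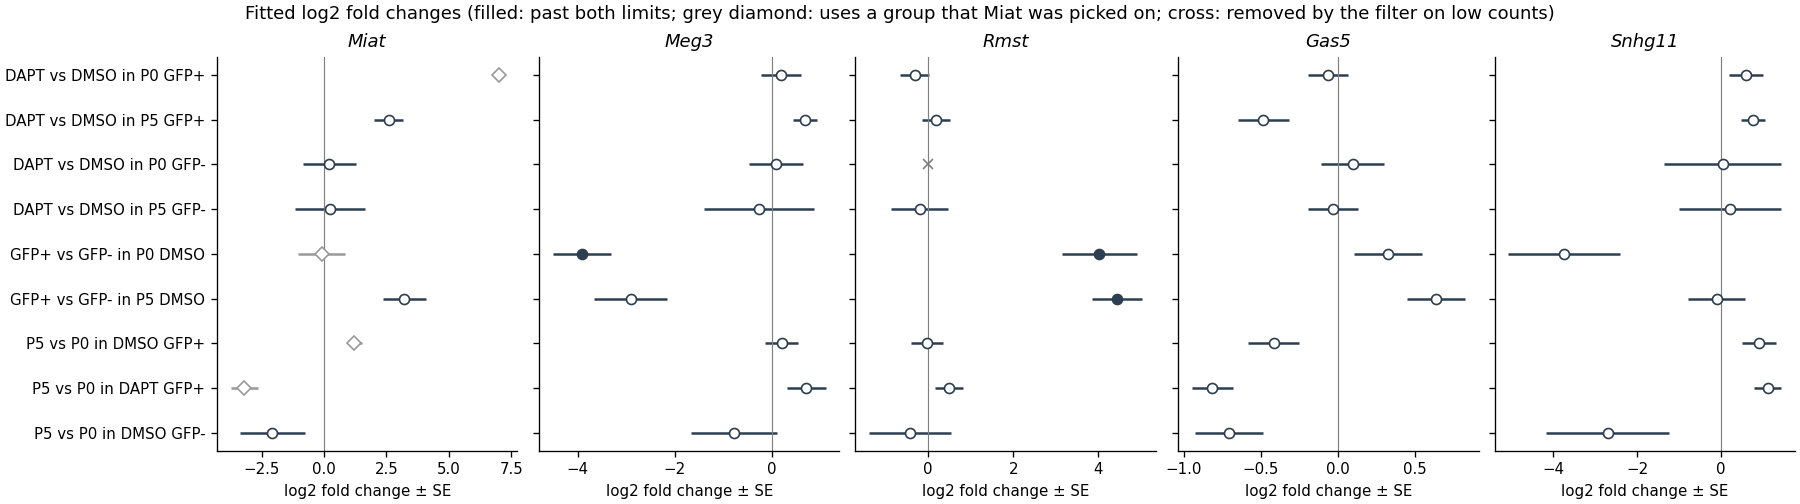
Fitted log2 fold changes with standard errors for 5 members in 9 comparisons, each panel with its own horizontal scale. Filled circles passed the limits (Meg3 and Rmst between fractions at P0 and Rmst between fractions at P5), grey diamonds are Miat values in comparisons that use a group it was picked on, and a cross marks Rmst in P0 GFP- cells, removed for low counts.

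Between the fractions, Meg3 and Rmst lay on opposite sides. Meg3 was at 282 and 91.6 CPM in P0 DMSO GFP- cells against 8.52 and 14.5 CPM in GFP+ cells (log2 fold change -3.92, standard error 0.60, adjusted p = 0.0031 in edgeR). Rmst was at 0.174 and 0.932 CPM in P0 DMSO GFP- cells, or 8 and 34 counts, against 6.41 and 10.1 CPM in GFP+ cells (log2 fold change 4.02, standard error 0.88, adjusted p = 0.0089 in edgeR). These were the 2 members that passed, in a comparison in which 40.9% of all genes did. Without P0 DMSO GFP+ replicate 1 or replicate 2 no gene passed, of 22162 and 21906 tested, and so neither of these members did, with log2 fold changes of -3.63 and -4.36 for Meg3 and 4.27 and 3.65 for Rmst. At P5, Rmst passed again, at 7.58 and 9.15 CPM in GFP+ and 0.587 and 0.250 CPM in GFP- cells (log2 fold change 4.43, standard error 0.59, adjusted p = 0.0023 in edgeR), and 33.9% of all genes passed. Without P5 DMSO GFP- replicate 2 its adjusted p was 0.010 in edgeR, just over the limit, and 2136 of 20091 genes passed, against 6450 of 19008 with it. Meg3 at P5 was at 14.4 and 12.7 CPM in GFP+ and at 188 and 35.0 CPM in GFP- cells and missed the limit on p (log2 fold change -2.91, adjusted p = 0.018 in edgeR).

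Intergenic non-coding RNA genes as a class lay to the GFP+ side of these comparisons. At P0 190 of 673 were higher and 14 lower in GFP+ cells (30.3%, beside 40.9% of all genes). Their median log2 fold change was 1.58, beside 0.18 over all genes. At P5 132 of 568 were higher and 7 lower (24.5%, beside 33.9%), with a median of 1.61 beside -0.03. Other non-coding classes lay to the same side. The medians at P0 and P5 were 4.02 and 3.30 for processed transcripts and 1.18 and 3.22 for small nucleolar RNA genes. For protein-coding genes they were -0.06 and -0.22. The annotation used here lists Snhg11 as protein-coding, so it falls in this class. Mitochondrial ribosomal RNA took 28.1 and 23.9% of assigned counts in the P0 DMSO GFP+ libraries and 0.109 and 0.0441% in the P0 DMSO GFP- libraries. At P5 in DMSO it took 29.8 and 25.3% in GFP+ and 0.0545 and 0.0633% in GFP- libraries. Its part, and that of the records outside genes, in the fraction differences of Rmst, Meg3 and Miat was not tested.

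Meg3's imprinted neighbour Dlk1, which encodes a transmembrane protein related to Notch ligands, showed the same side. It was at 1.26 ± 0.23 CPM in P0 DMSO GFP+ and 62.1 ± 42.7 CPM in P0 DMSO GFP- cells (SD, n = 2) and passed the limits (log2 fold change -5.51). The retrotransposon-derived Rtl1 was near 1 CPM in both. Small nucleolar RNA genes of the locus, annotated as SNORD113, did not all share this side. ENSMUSG00000064417 was higher in GFP+ cells and passed the limits (log2 fold change 5.75). Of all 181 small nucleolar RNA genes tested there, 57 were higher in GFP+ cells and 0 were lower. ENSMUSG00000089509 (2.96) and ENSMUSG00000084691 (-3.89) missed the limit on p. Meg3 shares 1228 exonic bases with the antisense gene Gm17639 and Rmst shares 1955 with the antisense gene Gm17341, and the kit does not keep strand, so reads of each pair cannot be told apart. Meg3, expressed per kilobase of exon, held places 19 to 31 among 909 intergenic non-coding RNA genes in the 4 GFP- groups and places 268 to 432 in the GFP+ groups.

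Miat itself was higher in GFP+ than in GFP- cells at P5, at 14.5 and 18.4 CPM against 3.36 and 0.474 CPM, without overlap. This comparison uses none of the libraries that chose it. The log2 fold change of 3.22 (standard error 0.85) missed the limit on p (adjusted p = 0.020 in edgeR). In DESeq2 it passed, as did 8039 of 20741 genes. At P5 Gas5 measured 138 and 171 CPM in GFP+ against 106 and 112 CPM in GFP- cells (log2 fold change 0.64, adjusted p = 0.029 in edgeR), and at P0 its fractions overlapped. Snhg11 at P0 was at 4.76 and 3.36 CPM in GFP+ and at 112 and 4.36 CPM in GFP- cells. The GFP- replicates differed so widely that the log2 fold change of -3.73 carried a standard error of 1.33 (adjusted p = 0.051 in edgeR). Without P0 DMSO GFP- replicate 2 it was -4.71, resting on the 1 GFP- library at 112 CPM. The omitted library, at 4.36 CPM, lay within the range of the GFP+ libraries. Of 26 other named long non-coding RNAs tested at P0, 6 were higher and 2 lower in GFP+ cells, where 40.9% of all genes passed. The imprinted H19 stood at 38.5 ± 1.96 CPM in GFP+ against 2648 ± 488 CPM in GFP- cells (SD, n = 2), and Tug1 at 425 ± 13.3 and 212 ± 0.836 CPM.

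In GFP- cells no member passed the limits with DAPT, nor did any gene (0%) at either age. Unadjusted p-values under 0.05 numbered 614 of 17357 genes at P0 and 342 of 17286 at P5, and DESeq2 called 27 and 8 genes. In these cells Miat measured 14.3 and 1.48 CPM in P0 DMSO, 11.5 and 7.12 CPM in P0 DAPT, 3.36 and 0.474 CPM in P5 DMSO and 4.21 and 0.313 CPM in P5 DAPT GFP- cells. DAPT and DMSO overlapped at both ages. At P0 Meg3 in GFP- cells was at 214 and 188 CPM with DAPT, within the range of its DMSO libraries. At P5 it was at 161 and 23.6 CPM with DAPT and 188 and 35.0 CPM in DMSO. Rmst was at 4 and 2 counts in the P0 DAPT GFP- libraries and was not tested there.

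Replicates of GFP- cells differed widely in Snhg11, Miat and Meg3. P0 DMSO GFP- replicate 2 had 4.36 CPM of Snhg11 where replicate 1 had 112, and 1.48 CPM of Miat where replicate 1 had 14.3. Summed neuron markers were at 431 CPM in replicate 1 and 41.0 CPM in replicate 2, and the neurofilament gene Nefl was at 73.1 and 1.37 CPM. Without P0 DMSO GFP- replicate 1, Snhg11 passed the limits between DAPT and DMSO in P0 GFP- cells, in a fit in which 549 of 17927 genes passed. At P5, replicate 2 of both treatments had less Meg3, Snhg11 and Miat than replicate 1, and a smaller share of records outside genes (7.16 and 6.64% against 13.7 and 12.6%). Summed neuron markers were at 93.0 and 93.6 CPM in the P5 DMSO pair and at 135 and 52.4 CPM in the P5 DAPT pair. Gas5 was not lower in these replicates, at 112 against 106 CPM and 119.9 against 92.4 CPM. Rmst took another course, at 0.174 and 0.932 CPM in replicates 1 and 2 of P0 DMSO, 0.587 and 0.250 CPM in P5 DMSO and 0.262 and 0.469 CPM in P5 DAPT GFP- cells. The part of neuron content or of records outside genes in these differences was not tested.

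**Figure D4:**
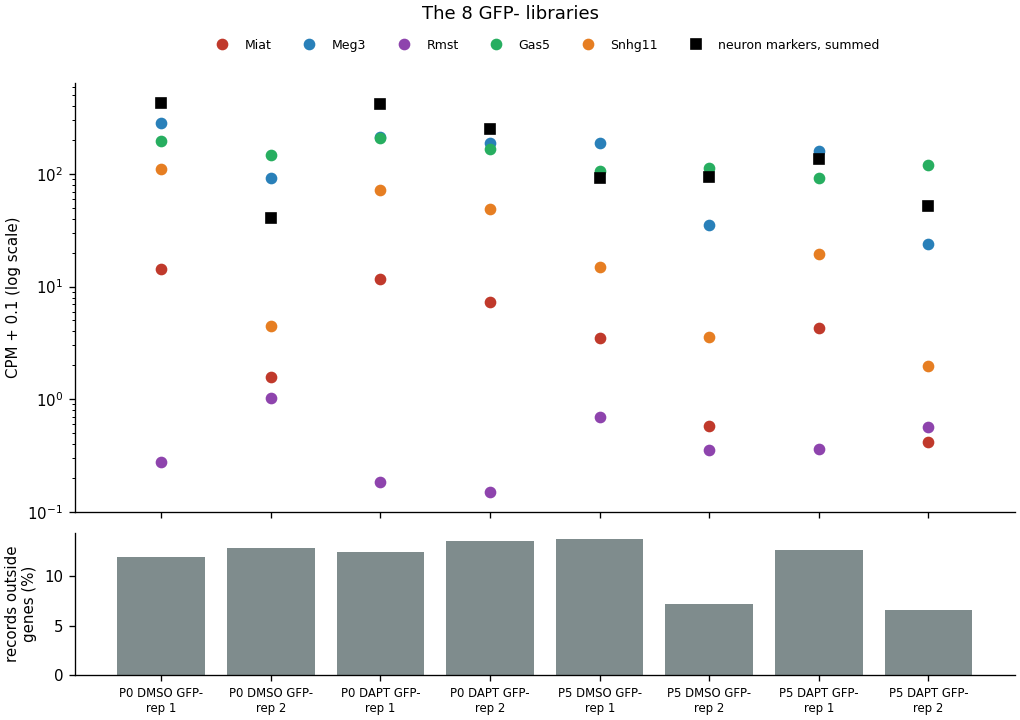
The upper panel shows CPM plus 0.1 on a log axis for 5 members (circles) and for summed neuron markers (squares) in each of the 8 GFP- libraries, and the lower panel the percentage of records outside genes. Snhg11 is at 4.36 CPM and neuron markers at 41.0 CPM in P0 DMSO replicate 2, and at P5 both replicate 2 libraries have the smaller share of records outside genes.

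With age, Gas5, a growth arrest transcript whose introns release small nucleolar RNAs, was lower in each P5 group than in its P0 counterpart, without overlap of libraries. In DAPT GFP+ cells, a comparison within a run, it was at 208 and 186 CPM at P0 and at 103 and 118 CPM at P5, and its fitted change of -0.81 ± 0.13 SE on the log2 scale missed the fold limit only (adjusted p = 0.0098 in edgeR), while 5.78% of all genes passed both limits. In DMSO GFP+ cells the log2 fold change of Gas5 was -0.42 (adjusted p = 0.14 in edgeR), where 3.32% of genes passed. In DMSO GFP- cells it was -0.71 (adjusted p = 1 in edgeR), where 0% of genes passed, 135 had an unadjusted p under 0.05 and DESeq2 called 1. Snhg11 was higher at P5 in GFP+ cells by 0.91 in DMSO and 1.103 in DAPT on the log2 scale (adjusted p = 0.18 and 0.066 in edgeR). None of the 4 members other than Miat passed both limits with age in either GFP+ comparison. Miat was at 971 and 866 CPM in P0 DAPT and 155 and 43.7 CPM in P5 DAPT GFP+ cells, and 9 of 10 hair cell markers were lower at P5 than at P0 in the same comparison.

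Ordered by mean level, Miat ran from P0 DAPT GFP+ (919 CPM) through P5 DAPT GFP+ (99.1 CPM) and P5 DMSO GFP+ (16.4 CPM) to the other groups, and each of these first 3 groups lay apart from the next. P0 DAPT GFP-, P0 DMSO GFP- and P0 DMSO GFP+ followed with means from 9.33 to 6.88 CPM, and neighbours in that order overlapped. P5 DAPT and P5 DMSO GFP- came last, at 2.26 and 1.92 CPM, and overlapped. For Meg3 all 4 GFP- groups came first and overlapped with their neighbours, and for Rmst all 4 GFP+ groups came first and overlapped with theirs. Between members, levels per kilobase of exon put Gas5 highest in each GFP+ group but P0 DAPT, at 53.4 CPM in P0 DMSO, where Rmst was at 1.60, Miat at 0.785, Meg3 at 0.635 and Snhg11 at 0.477.

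Over the 16 libraries, the genes whose log2(CPM + 1) ran most like that of Miat among 12400 genes were Cstf3, a factor in messenger RNA 3′ end formation (Pearson r = 0.974), Ica1 (0.956), the choline kinase gene Chka (0.956), Gtf2h2 (0.952) and A830080D01Rik (0.951). Their range was much narrower than that of Miat, since Cstf3 had a mean of 50.3 CPM in P0 DMSO GFP+ and 86.0 CPM in P0 DAPT GFP+ cells, and Chka 94.3 and 399.7 CPM. The closest to Meg3 were Sirt4 (0.976) and Slc4a3 (0.972), to Rmst Fam65b (0.987) and Dennd1b (0.984), to Gas5 Hdac1 (0.849) and ENSMUSG00000078106 (0.845), and to Snhg11 Stmn4 (0.897) and B3gat1 (0.878). The libraries share groups, runs and depth, so these correlations describe the samples and carry no p-value.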

How the data were processed

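Sorted cochlear cells were sequenced as 100 bp paired ends from poly(A)-selected RNA with an unstranded kit, and complementary DNA from small cell numbers had an extra amplification. The authors aligned reads to mm9 (NCBIM37). The submitters' processing notes name TopHat 1.4.0, HTSeq and DESeq 1.9.2, and the counting settings are not given in the sources used here. The authors deposited raw counts per Ensembl gene, 1 library per file, and the 5 closing lines of each file entered no test.

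The counts were tested with edgeR 4.0.16 in R 4.3.3 (filterByExpr with minimum count 10 and total 15, TMM, glmQLFit and glmQLFTest, Benjamini-Hochberg adjustment over all genes tested), with only the groups compared in each fit. DESeq2 1.42.0 was an alternative. The standard error is the size of the log2 fold change divided by the square root of F. CPM were normalised over 24731 genes. The fits were tested on data simulated with a spread shared by all genes, in which fewer of the changes put in were recovered at the P5 than at the P0 spread. Depth per library is given as assigned counts in the results, and 2 libraries per group limit the precision of each value.

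Groups came from the sample titles. The members and gene lists were chosen with earlier results of these data known, and members were taken out of the lists before counting. The counts of 2 lists are not reported here. Named genes were the members, the 5 (Miat) or 2 genes most like each in pattern among genes with a group mean of at least 10 CPM, genes within 100 kb of Miat, Meg3's neighbours, the Notch targets, and up to 4 genes per list with the largest change among those past the limits. H19 and Tug1, the genes given beside them in GFP- libraries, and values that missed the limits were named after their values were seen. Coordinates and exonic lengths came from GENCODE M1 on NCBIM37 and promoters from RefSeq on GRCm38.p6. The table identifiers matched 34391 genes of GENCODE M1.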

Additional observations from a re-analysis of the deposited data

How the results depend on the processing

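Each comparison was refitted with DESeq2 in place of edgeR, with DESeq2 size factors, without a filter for low counts, with all 8 groups fitted together, with a replicate block, without mitochondrial genes, at an adjusted p limit of 0.05 and with each replicate left out. For DAPT against DMSO in P5 GFP- cells, the number of members past the limits was 0 under all of them. In P0 GFP+ cells it was 1 under all, Miat, whose change there chose it, so this says nothing of its stability. For DAPT in P5 GFP+ cells it went from 0 to 1 (Miat) with no filter, and ranged from 0 to 1 when a replicate was left out. For DAPT in P0 GFP- cells the range was 0 to 1 (Snhg11). Between fractions at P0 it went from 2 to a lowest of 0 and a highest of 2 with a replicate left out. Between fractions at P5 it went from 1 to 3 with no filter (9095 of 30066 genes passed), 2 in DESeq2 (8039 of 20741) and 3 at the limit of 0.05 (9177 of 19008). For P5 against P0 in DMSO GFP+ cells it went from 0 to 1 with no filter, in DESeq2 and at 0.05, and in DAPT GFP+ cells from 0 to 1 in these 3 settings and with the replicate block, with a range of 0 to 1 over left-out replicates. In the comparisons of ages in GFP+ cells the member was Miat, through libraries it was chosen on, and these counts support nothing. For P5 against P0 in DMSO GFP- cells the count was 0 except without P0 DMSO GFP- replicate 2. There the member was Snhg11, resting on the 1 P0 library left, at 112 CPM. For the difference between the responses of the ages, the 1 member counted was again Miat, by the P0 response that chose it, and the count was 0 with all 8 groups and ranged from 0 to 1 over left-out replicates. It is no test of Miat. The causes were not tested.

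Small changes that missed the limits turned in sign when a replicate was left out. In P0 GFP+ cells with DAPT, the log2 fold changes ranged from -0.51 to 0.71 for Meg3 (-0.11 without P0 DMSO GFP+ replicate 1), from -0.57 to 0.070 for Rmst and to 0.044 for Gas5 (0.0052 without P0 DMSO GFP+ replicate 2). In P5 GFP+ cells Rmst ranged from -0.051 to 0.38, and for P5 against P0 in DMSO GFP- cells Snhg11 ranged from -4.12 to 1.05. The titles number replicates in every group but no source says that the numbers pair samples. Same-numbered deviations correlated across 16225 genes at -0.062 in P0 GFP+, -0.32 in P5 GFP+, 0.44 in P0 GFP- and 0.74 in P5 GFP- cells. The replicate block changed no other count of members, and with the numbers crossed in P5 GFP+ cells, an alternative chosen after seeing the data, 0 genes were called. Where a group is left with 1 library, it is assumed to vary like the others.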
